A study of Schizosaccharomyces pombe with 36 samples.

Results

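Glycerol is the compatible solute that yeast cells accumulate when the medium becomes hyperosmotic. It is made from dihydroxyacetone phosphate, an intermediate of glycolysis, by an NAD-dependent glycerol-3-phosphate dehydrogenase and a phosphatase, and in fission yeast it is broken down again by a glycerol dehydrogenase followed by a dihydroxyacetone kinase. Glycerol 3-phosphate is also oxidized in mitochondria by an FAD-dependent dehydrogenase, and glycerol crosses the plasma membrane through channels of the aquaporin family. The genes described here are 7 of the 7039 features of the deposited table, found in the table by symbol or systematic name. *gpd1* and *gpd2* encode the isozymes of NAD-dependent glycerol-3-phosphate dehydrogenase, *gut2* the mitochondrial FAD-dependent enzyme, *gld1* glycerol dehydrogenase, *dak1* and *dak2* dihydroxyacetone kinases, and SPAC977.17 a homologue of glycerol channels. All 7 passed the filter on low values and were tested.

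RNA was measured in *Schizosaccharomyces pombe* cells grown in yeast extract medium, in a strain labelled *atf21Δ* (deletion of *atf21*, a transcription factor gene of the ATF family) and in a wild-type (WT) strain. Both were sampled immediately before the addition of 1 M sorbitol (0 min) and 5 times during the stress (15, 30, 60 and 120 min, the last sample being that of 180 min), in 3 biological replicates per strain and time, which gave 36 strand-specific libraries. Both strains received sorbitol, so there is no culture without sorbitol at the later times, and time in culture and time in sorbitol cannot be told apart. Each library held between 7457173 and 20126545 uniquely mapped reads.

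The label of the deletion was checked on *atf21* itself. At 30 min it had 15.4, 17.8 and 30.4 RPKM (509 to 899 reads) in the libraries labelled *atf21Δ*, against 27.8, 29.2 and 28.1 RPKM (732 to 1081 reads) in WT. At 60 min *atf21* had 1.97, 3.00 and 3.18 RPKM (68 to 108 reads) in the libraries labelled *atf21Δ*. The WT libraries had 0.48, 0.36 and 0.46 RPKM (8 to 15 reads) at 60 min. The strains did not overlap there or at 0 min, where no library had more than 24 reads, and they overlapped at the other times. Reads on *atf21* were therefore present in the libraries labelled *atf21Δ*, and every difference between strains below is between the libraries as labelled. RPKM is the number of reads per kilobase of a feature, relative to the mapped reads of the library. Before any scaling, all tested features together had a median log2 change of -0.43 (15 min) and -0.30 (30 min) in the libraries labelled *atf21Δ*, and of -0.46 and -0.38 in WT. Changes are therefore given relative to that shift, after scaling of each library, and as log2 of the scaled RPKM plus 0.5.

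A short stretch of DNA upstream of *gpd1* and *gut2* is shown first because these genes had the largest changes of the 7. TGACGT, the core of the sequence that ATF/CREB factors bind, was searched on both strands from 500 bases before to 50 bases after the transcript start of RefSeq (assembly ASM294v3). It was found in 8.53% of 5112 promoters. *gpd1* held 2 matches and *gut2* held 1, and the other 5 genes held none. The match is in capitals and is read as ACGTCA where it lies on the opposite strand, and each sequence is written on the strand of its gene.
gpd1, match at position -123 from the start, plus strand, chrII:4035432-4035459: tgtcaggcatgTGACGTttggtatcacc
gpd1, match at position -74 from the start, plus strand, chrII:4035481-4035508: gtagtgtttttACGTCAtttggtacggc
gut2, match at position -70 from the start, minus strand, chrIII:1843310-1843337: aaacaaacccaACGTCActgttgacatg
The full palindrome TGACGTCA, in which the shorter motif is contained, was in 0.372% of promoters and in none of the 7. Of the stress response element, only the form CCCCTC was searched. It was in 3.83% of promoters and in *gld1* alone among the 7, on the opposite strand at position -439. By its coordinates that match lies inside the *gld1* feature on which reads were counted, which runs to 2177050. RefSeq starts differ from those of the counted features, from which no window was searched. These are matches of letters, and binding was not measured.

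**Figure D1:**
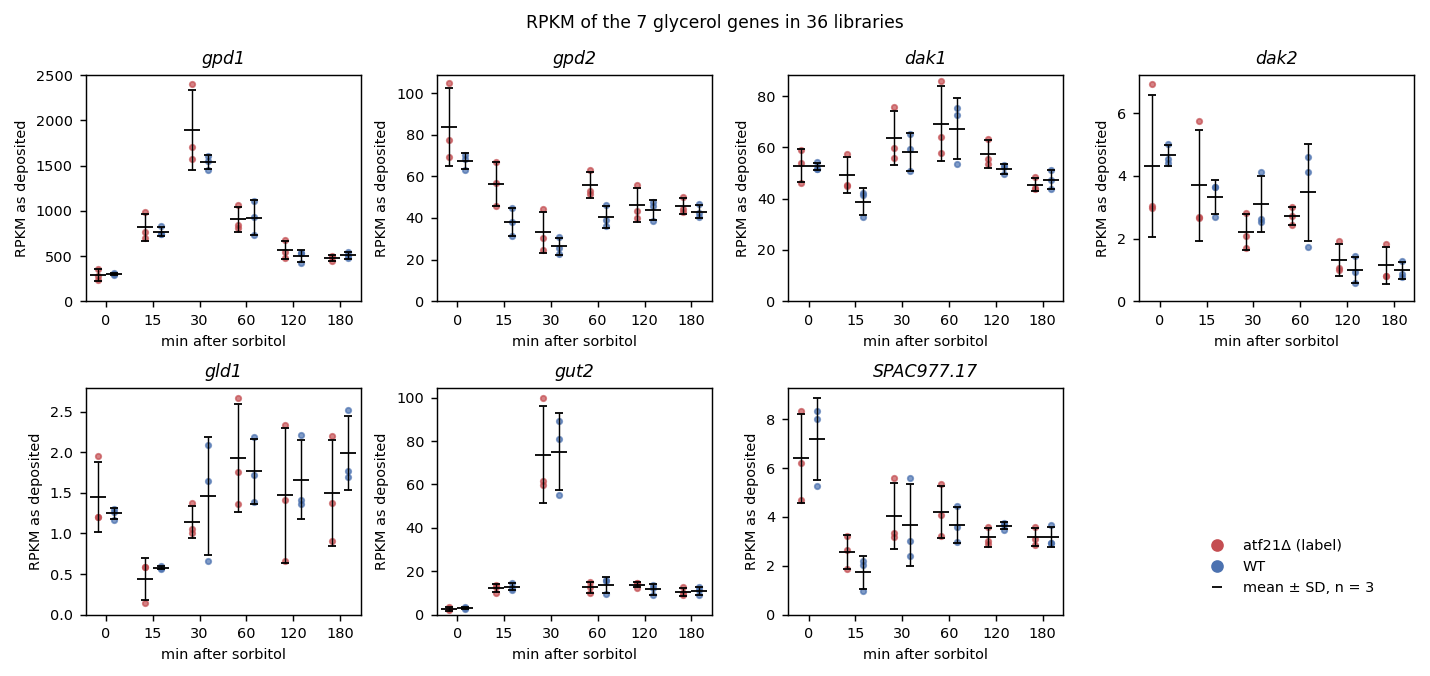
RPKM as deposited of each of the 7 genes (vertical axis, a scale of its own for each gene, from 0) at 0 to 180 min after sorbitol (horizontal axis), with 1 point per library, red for the libraries labelled *atf21Δ* and blue for WT, and bars for mean ± SD of 3. *gpd1* and *gut2* have their highest values at 30 min in both strains, where *gpd2* has its lowest.

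The NAD-dependent dehydrogenase gene *gpd1* (SPBC215.05, chromosome II 4035580 to 4037342, plus strand, PomBase release 11) was the most abundant of the 7 RNAs at every time in both strains. In the libraries labelled *atf21Δ* it had 1700.2, 1572 and 2397 RPKM at 30 min, against 231, 277 and 359.9 RPKM at 0 min. In WT it had 1549.5, 1607 and 1453 RPKM at 30 min, against 316, 291 and 302 RPKM at 0 min. No library of any later time overlapped those of 0 min in either strain. Replicate 3 at 30 min of the libraries labelled *atf21Δ* was the highest of all 36 on the RPKM as deposited. After scaling it had 2111, against 2088 in replicate 2 of WT at 30 min. The mean of the scaled values at 30 min was 8.06 times that at 0 min in the libraries labelled *atf21Δ* and 6.67 times in WT.

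Over the full course *gpd1* was highest at 30 min and lower at each time after it. In time order, mean RPKM over the 6 times was 289 ± 65.5, 818 ± 151, 1889.7 ± 444, 906 ± 138, 567 ± 100.02 and 475 ± 30.6 in the libraries labelled *atf21Δ*. The same means in WT were 303 ± 12.7, 769.7 ± 52.4, 1537 ± 77.9, 923 ± 191, 499 ± 62.2 and 508 ± 38.2 (SD, n = 3 each). With limma the log2 change at 30 min was 3.01 ± 0.15 (SE) in the libraries labelled *atf21Δ* (Benjamini-Hochberg adjusted p = 7.13e-11). In WT it was 2.73 ± 0.14 (limma, Benjamini-Hochberg adjusted p = 4.38e-10). At 180 min *gpd1* was still higher than at 0 min, by 0.98 and 0.91 on the log2 scale in the libraries labelled *atf21Δ* and in WT.

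The isozyme gene *gpd2* (SPAC23D3.04c, chromosome I 4342230 to 4344039, minus strand) moved the other way. It had 24.8, 30.5 and 44.1 RPKM at 30 min in the libraries labelled *atf21Δ*, against 69.2, 77.2 and 105 RPKM at 0 min. The WT libraries had 25.7, 30.8 and 22.5 RPKM at 30 min, against 70.2, 62.8 and 68.5 RPKM at 0 min. The 2 times did not overlap in either strain. The log2 change at 30 min was -1.05 ± 0.13 (SE) in the libraries labelled *atf21Δ* (limma, Benjamini-Hochberg adjusted p = 1.16e-05) and -0.96 ± 0.12 in WT (limma, Benjamini-Hochberg adjusted p = 4.16e-05). *gpd2* was also called lower at 60, 120 and 180 min in both strains, by 0.47 to 0.80 on the log2 scale, and at 15 min it had log2 changes of -0.10 in the libraries labelled *atf21Δ* and -0.33 in WT, neither of which passed. On the RPKM as deposited both 15 min changes of *gpd2* passed, with -0.56 and -0.83 (limma, Benjamini-Hochberg adjusted p = 0.0492 and 0.00106), and with quantile normalization that in WT did, with -0.58 (limma, Benjamini-Hochberg adjusted p = 0.00297). The 180 min call in WT was lost without replicate 2 or replicate 3 of WT at 0 min (limma, Benjamini-Hochberg adjusted p = 0.0704 and 0.0576), and the 15 min change in WT passed without replicate 2 of WT at 30 min (limma, Benjamini-Hochberg adjusted p = 0.0265).

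The coding sequences of *gpd1* (1158 bases) and *gpd2* (1122 bases) are alike, with 65.1% identical bases over 1108 aligned positions of the RefSeq sequences. No stretch of 48 bases, the read length, within the RefSeq span of any of the 7 genes occurred elsewhere in that genome. The features on which reads were counted are longer for some genes, and the bases outside the RefSeq spans were not searched. Within these spans, reads of 1 isozyme could therefore be told from those of the other at full identity of the read.

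The balance between the isozymes was followed as the log2 ratio of *gpd1* to *gpd2* RPKM (each plus 0.5) within each library, which is close to free of the scaling. At 30 min it was 5.83 ± 0.22 in the libraries labelled *atf21Δ*, against 1.78 ± 0.05 at 0 min. In WT it was 5.85 ± 0.15 at 30 min, against 2.17 ± 0.04 at 0 min (SD, n = 3 each). The ratio was higher than at 0 min in every library of each later time in both strains. The difference from 0 min over both strains was 2.12, 3.87, 2.27, 1.57 and 1.48 over the 5 later times in order. Each gave p = 0.005 in a two-sided exact permutation test that exchanged the times within each strain, the smallest that its 400 arrangements allow, and an adjusted p of 0.0096 over the 25 pairs and times computed. At 0 min the ratios of the 2 strains did not overlap, and that difference was not tested.

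**Figure D2:**
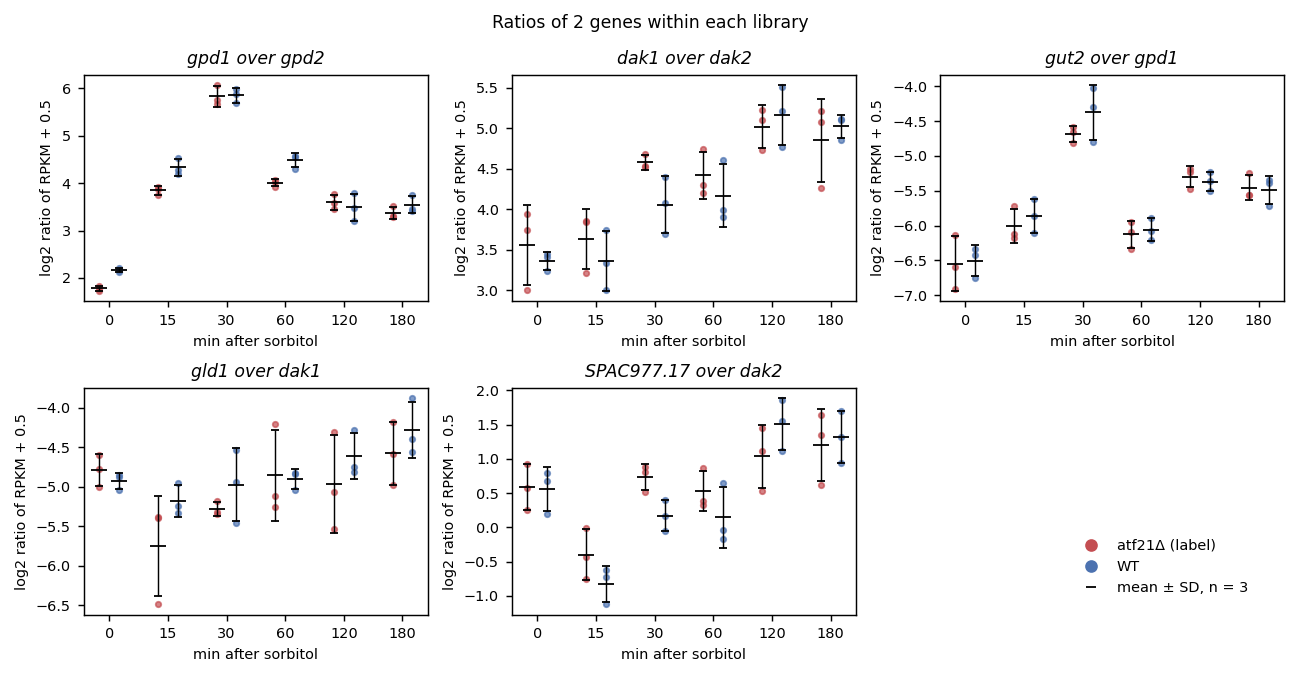
The log2 ratio of RPKM plus 0.5 between 2 genes within each library (vertical axis) at 0 to 180 min after sorbitol (horizontal axis) for 5 pairs, with 1 point per library, red for the libraries labelled *atf21Δ* and blue for WT, and bars for mean ± SD of 3. The ratio of *gpd1* to *gpd2* is above its level of 0 min at every later time and highest at 30 min, and that of *dak1* to *dak2* is highest at 120 and 180 min.

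The mitochondrial dehydrogenase gene *gut2* (SPCC1223.03c, minus strand of chromosome III, 1840594 to 1843300) changed most of the 7. In the libraries labelled *atf21Δ* it had 59.9, 61.8 and 99.7 RPKM at 30 min, against 1.89, 3.45 and 2.49 RPKM at 0 min. WT cells had 55.3, 81.0 and 89.3 RPKM at 30 min, against 2.43, 2.89 and 3.26 RPKM at 0 min. These values rest on 2150 to 3591 reads at 30 min in both strains together, and on 51 to 127 reads at 0 min. The mean of the scaled values at 30 min was 34.5 times that at 0 min in the libraries labelled *atf21Δ* and 34.8 times in WT.

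At 60 min and later *gut2* was again near its level of 15 min. In time order, mean RPKM over the 6 times was 2.61 ± 0.79, 12.2 ± 1.87, 73.8 ± 22.4, 12.6 ± 2.58, 13.8 ± 1.36 and 10.4 ± 1.91 in the libraries labelled *atf21Δ*. In WT the means were 2.86 ± 0.42, 12.8 ± 1.58, 75.2 ± 17.7, 13.5 ± 3.61, 11.7 ± 2.54 and 10.9 ± 1.80 (SD, n = 3 each). Every library after sorbitol was above every library of 0 min of its strain. The log2 change at 30 min was 4.83 ± 0.19 (SE) in the libraries labelled *atf21Δ* (limma, Benjamini-Hochberg adjusted p = 5.23e-12) and 4.84 ± 0.24 in WT (limma, Benjamini-Hochberg adjusted p = 4.38e-10). At the other 4 times it lay between 2.02 and 2.47 in the libraries labelled *atf21Δ* and between 1.90 and 2.45 in WT.

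Relative to *gpd1*, *gut2* was higher at each of the 5 later times than at 0 min. The log2 ratio of *gut2* to *gpd1* exceeded that of 0 min by 2.00 (30 min), 1.19 (120 min) and 1.05 (180 min), with p = 0.005 each in the exact permutation test (adjusted p = 0.0096). At 15 and 60 min the differences were 0.59 and 0.43, where libraries labelled *atf21Δ* overlapped those of 0 min (adjusted exact permutation p = 0.0167 and 0.0234). The 60 min difference in *gut2* over *gpd1* did not pass without replicate 3 at 0 min or replicate 2 or 3 at 60 min of the libraries labelled *atf21Δ* (adjusted exact permutation p = 0.0556, 0.0724 and 0.0592), or when 1 was added to each RPKM in place of 0.5, with 0.28 (0.0724).

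The other dehydrogenase gene, *gld1* (SPAC13F5.03c, chromosome I 2174641 to 2177050, minus strand), which encodes glycerol dehydrogenase, had little RNA. It held 4 to 89 reads per library. At 15 min it had 0.591, 0.585 and 0.144 RPKM in the libraries labelled *atf21Δ*, against 1.21, 1.20 and 1.95 RPKM at 0 min. WT cells had 0.557, 0.602 and 0.577 RPKM at 15 min, against 1.17, 1.31 and 1.27 RPKM at 0 min. Both strains were thus lower at 15 min without overlap. The log2 changes at 15 min, -0.79 ± 0.33 in the libraries labelled *atf21Δ* and -0.39 ± 0.31 in WT (SE), did not pass (limma, Benjamini-Hochberg adjusted p = 0.109 and 0.486), and no other time passed in either strain. On the RPKM as deposited the 15 min change in the libraries labelled *atf21Δ* was -1.07 and passed (limma, Benjamini-Hochberg adjusted p = 0.0228). The F-test of *gld1* over time did not pass (limma, Benjamini-Hochberg adjusted p = 0.085 in the libraries labelled *atf21Δ* and 0.0918 in WT). On the deposited RPKM the F-test passed in both (limma, Benjamini-Hochberg adjusted p = 0.017 and 0.0184). The F-test of *gld1* also passed without replicate 1 or 2 at 120 min of the libraries labelled *atf21Δ*, or without replicate 1 of WT at 30 min (limma, Benjamini-Hochberg adjusted p = 0.0492, 0.0489 and 0.00701). Without that WT library the 30 min change of *gld1* in WT was 0.80 and passed (limma, Benjamini-Hochberg adjusted p = 0.0449).

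*dak1* and *dak2* encode kinases that phosphorylate dihydroxyacetone, the product of glycerol dehydrogenase, and their coding sequences share 59.6% of bases over 1684 aligned positions. *dak1* (SPAC22A12.11, chromosome I 1176703 to 1178897, plus strand) was the abundant one. It had 55.8, 59.6 and 75.8 RPKM at 30 min in the libraries labelled *atf21Δ*, against 46.1, 53.8 and 58.8 RPKM at 0 min. The WT libraries had 50.6, 65.3 and 59.2 RPKM at 30 min, against 54.3, 51.8 and 51.7 RPKM at 0 min. The deposited values of the 2 times overlapped in both strains, and the scaled values did not. The log2 change at 30 min after scaling was 0.56 ± 0.12 (SE) in the libraries labelled *atf21Δ* (limma, Benjamini-Hochberg adjusted p = 0.00182) and 0.53 ± 0.13 in WT (limma, Benjamini-Hochberg adjusted p = 0.0112).

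In the libraries labelled *atf21Δ*, *dak1* was also called higher at 15 min (0.35) and 60 min (0.41). On the RPKM as deposited it had -0.11 at 15 min, which did not pass (limma, Benjamini-Hochberg adjusted p = 0.72). The direction of *dak1* at 15 min thus depended on the scaling, and its 30 min changes of 0.26 in the libraries labelled *atf21Δ* and 0.14 in WT on the RPKM as deposited did not pass, nor did its 60 min change of 0.37 in the libraries labelled *atf21Δ* (limma, Benjamini-Hochberg adjusted p = 0.127). With quantile normalization the 30 min change in WT was 0.33 and the 15 min change in the libraries labelled *atf21Δ* 0.15, and neither passed (limma, Benjamini-Hochberg adjusted p = 0.104 and 0.418). That 15 min call was also lost with a minimum RPKM of 5 and without the variance trend (limma, Benjamini-Hochberg adjusted p = 0.0522 and 0.0538). Several calls of *dak1* also rested on single libraries. The 30 min call in WT was lost without replicate 2 of WT at 30 min, with 0.39 (limma, Benjamini-Hochberg adjusted p = 0.0677). The 15 min call was lost, with 0.26 to 0.38, without any 1 of 7 libraries labelled *atf21Δ* (all 3 replicates at 0 min, 1 and 3 at 15 min, 1 at 30 min and 1 at 180 min). The 60 min call was lost without replicate 3 of that strain at 60 min, with 0.28, or its replicate 2 at 0 min, with 0.40 (limma, Benjamini-Hochberg adjusted p = 0.0818 and 0.0556). In WT the 60 min change of 0.34 passed without replicate 1 of WT at 30 min, and the F-test did not pass without replicate 3 at 30 min (limma, Benjamini-Hochberg adjusted p = 0.0291 and 0.0535).

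*dak2* (SPAC977.16c, chromosome I 64559 to 66980, minus strand) had between 15 and 288 reads per library and fell late. At 120 min it had 1.06, 0.995 and 1.91 RPKM in the libraries labelled *atf21Δ*, against 2.98, 3.03 and 6.92 RPKM at 0 min. In WT it had 0.948, 0.597 and 1.43 RPKM at 120 min, against 4.54, 4.40 and 5.02 RPKM at 0 min. Replicate 3 of the libraries labelled *atf21Δ* was the high one at 0 min, and the 2 times did not overlap in either strain. The log2 change at 120 min was -1.27 ± 0.28 (SE) in the libraries labelled *atf21Δ* and -1.75 ± 0.29 in WT (limma, Benjamini-Hochberg adjusted p = 0.00292 and 0.000443). At 180 min it was -1.29 ± 0.28 and -1.67 ± 0.29 (limma, Benjamini-Hochberg adjusted p = 0.00257 and 0.000684). At 15, 30 and 60 min no change of *dak2* passed in either strain.

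The log2 ratio of *dak1* to *dak2* within a library was 5.02 ± 0.26 at 120 min in the libraries labelled *atf21Δ*, against 3.56 ± 0.50 at 0 min. In WT it was 5.17 ± 0.37 at 120 min, against 3.37 ± 0.11 at 0 min (SD, n = 3 each). The difference from 0 min over both strains was 0.85, 0.83, 1.63 and 1.48 at 30, 60, 120 and 180 min, each without overlap in either strain (exact permutation p = 0.005, adjusted p = 0.0096). At 15 min it was 0.03, which did not pass (exact permutation p = 0.865). The ratio of *gld1* to *dak1* was lower at 15 min by a log2 difference of -0.61 and higher at 180 min by 0.43 (adjusted exact permutation p = 0.0167 and 0.0395). At 15 min the difference was -0.97 in the libraries labelled *atf21Δ* and -0.25 in WT, where the 2 times overlapped. At 180 min it was 0.21 in the libraries labelled *atf21Δ*, where the 2 times overlapped, and 0.65 in WT. The 180 min difference did not pass when any 1 of 8 libraries was left out, which were replicates 1 and 2 at 0 min and 2 and 3 at 180 min of the libraries labelled *atf21Δ*, and all 3 at 0 min and replicate 3 at 180 min of WT (0.33 to 0.45, adjusted exact permutation p = 0.0658 to 0.0987). It also did not pass with 0.1 added to each RPKM, and the 15 min difference did not pass with 1 added (adjusted exact permutation p = 0.0855 and 0.0556). At 30 min the difference passed, with -0.38, without replicate 3 of WT at 30 min (adjusted exact permutation p = 0.0221).

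SPAC977.17 (chromosome I 66219 to 69821, plus strand), the gene of the channel homologue, lies next to *dak2* on the opposite strand, and the 2 features overlap by 762 bases at their ends. It had 1.85, 2.63 and 3.22 RPKM at 15 min in the libraries labelled *atf21Δ*, against 4.70, 6.19 and 8.33 RPKM at 0 min. In WT it had 0.965, 2.19 and 2.01 RPKM at 15 min, against 5.26, 8.00 and 8.35 RPKM at 0 min. No library of 15 min reached one of 0 min in either strain. The log2 change at 15 min was -0.75 ± 0.18 (SE) in the libraries labelled *atf21Δ* and -1.40 ± 0.31 in WT (limma, Benjamini-Hochberg adjusted p = 0.00668 and 0.00504).

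At 30 min SPAC977.17 had higher means than at 15 min, with 4.04 ± 1.35 RPKM in the libraries labelled *atf21Δ* and 3.67 ± 1.70 RPKM in WT (SD, n = 3 each). The scaled values of 15 and 30 min overlapped in both strains, and these times were not compared by a test. Against 0 min, SPAC977.17 was called lower at 120 and 180 min in the libraries labelled *atf21Δ* (-0.84 and -0.65). In WT it had -0.81 and -0.89 at these times, which did not pass (limma, Benjamini-Hochberg adjusted p = 0.0995 and 0.0665). These WT changes depended on the setting. In 1 fit of all libraries those of 60, 120 and 180 min passed (limma, Benjamini-Hochberg adjusted p = 0.0186, 0.0285 and 0.0148), and on the RPKM as deposited all from 30 min on passed, with -0.87 to -1.05 (limma, Benjamini-Hochberg adjusted p = 0.0129 to 0.0366). Quantile normalization called 60 and 180 min in WT (limma, Benjamini-Hochberg adjusted p = 0.0492 and 0.0398) and 60 min in the libraries labelled *atf21Δ* (0.0384). With voom on recovered reads 180 min in WT and 60 min in the libraries labelled *atf21Δ* passed (Benjamini-Hochberg adjusted p = 0.0472 and 0.0198). The fit of all libraries together lost the F-test of SPAC977.17 and its 180 min call in the libraries labelled *atf21Δ* (limma, Benjamini-Hochberg adjusted p = 0.0628 and 0.0869). The 180 min call was lost without replicate 3 at 0 min or replicates 1 or 2 at 180 min of the libraries labelled *atf21Δ* (limma, Benjamini-Hochberg adjusted p = 0.0796, 0.052 and 0.0591). The F-test in WT was lost without replicate 2 or 3 of WT at 0 min (limma, Benjamini-Hochberg adjusted p of SPAC977.17 = 0.0965 and 0.0904). The 180 min change in WT passed without replicate 1 of WT at 0, 15 or 30 min or replicate 3 at 30 min, and the 60 min change without 3 of these 4, replicate 1 at 30 min being the exception, or, in the libraries labelled *atf21Δ*, without replicate 3 at 60 min (limma, Benjamini-Hochberg adjusted p of these 0.0294 to 0.0433). The 120 min change in WT passed without replicate 1 at 0 min (limma, Benjamini-Hochberg adjusted p = 0.0443). No change of *dak2* passed at 15 min, and the log2 ratio of SPAC977.17 to *dak2* was lower at 15 min than at 0 min by a difference of -1.18 (exact permutation p = 0.005, adjusted p = 0.0096). At 120 and 180 min the same ratio was higher than at 0 min, by 0.70 and 0.69 (adjusted exact permutation p = 0.0278 each), where libraries labelled *atf21Δ* overlapped those of 0 min. Both did not pass without replicate 3 at 0 min of the libraries labelled *atf21Δ* (adjusted exact permutation p = 0.0592 and 0.0515), nor did that of 120 min without their replicate 2 at 120 min, or that of 180 min without their replicate 3 at 180 min (0.0526 and 0.0556).

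**Figure D3:**
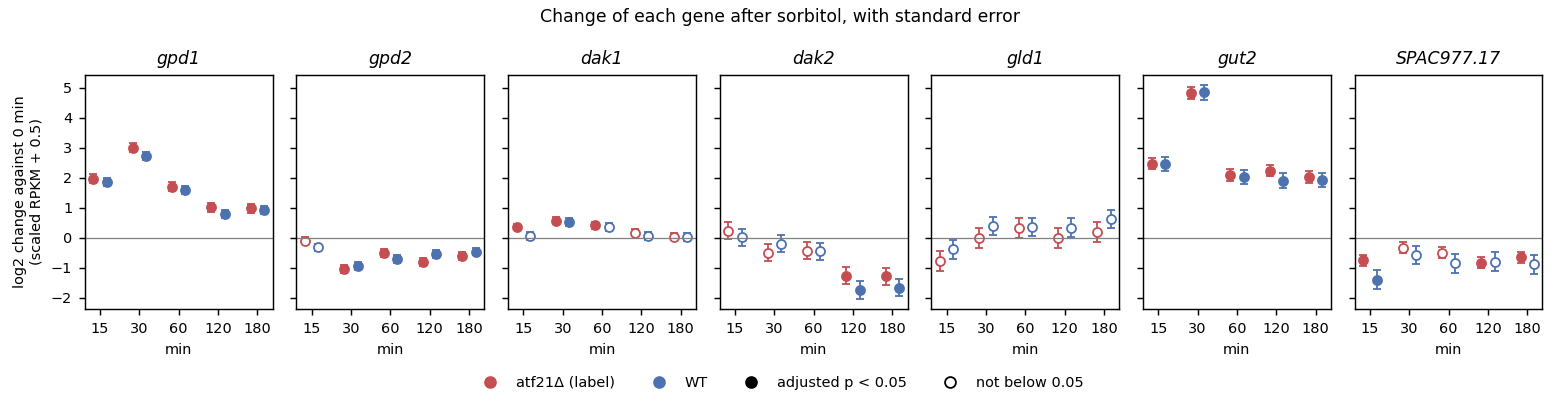
The log2 change against 0 min of the same strain (vertical axis, scaled RPKM plus 0.5) at 15 to 180 min (horizontal axis) for each of the 7 genes, with standard errors from limma, red for the libraries labelled *atf21Δ* and blue for WT. Filled points have a Benjamini-Hochberg adjusted p below 0.05, and *gpd1* and *gut2* are filled at all 5 times in both strains, where *gld1* is filled at none.

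Over the whole course, 6 of the 7 genes changed in the libraries labelled *atf21Δ* (F-test of limma, Benjamini-Hochberg adjusted p below 0.05), where 62.2% of the 5882 tested features did. In WT 6 of 7 changed, against 51.8% of all tested features. *gld1* was the gene that did not pass in either strain. Since most of the tested features changed as well, these counts are not a result about the 7 genes.

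At single times the libraries labelled *atf21Δ* had 4, 4, 4, 5 and 5 of the 7 genes called over the 5 later times in order. Of all tested features 27.5%, 38.8%, 19.6%, 9.67% and 8.7% were called at these times. WT had 3, 4, 3, 4 and 4 of 7 called, against 22.3%, 28.6%, 14.8%, 5.59% and 5% of all features. At 30 min 3 genes were called higher (*gpd1*, *gut2* and *dak1*) and 1 lower (*gpd2*) in each strain. Among all features 19.7% were higher and 19.1% lower at 30 min in the libraries labelled *atf21Δ*, and 15.5% and 13.2% in WT. The share of the 7 genes called stood furthest above that of all features at 120 and 180 min, where *gpd1* and *gut2* were still higher and *gpd2* and *dak2* lower in both strains.

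The 2 strains were compared in 1 fit of all libraries. No gene of the 7 had a response over time that differed between the strains (limma F-test of the interaction of strain and time, adjusted or unadjusted, and with voom on the recovered reads). Among all tested features 0.034% passed this test. For *gpd1* the change at 30 min in the libraries labelled *atf21Δ* exceeded that in WT by 0.27, with a 95% confidence interval from -0.13 to 0.68. For *gut2* the difference between the changes was -0.02, with an interval from -0.68 to 0.64. The widest intervals were those of *gld1*, where the difference at 180 min was -0.45 (-1.38 to 0.49).

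At single times, none of 42 comparisons between strains passed the adjusted test of limma or voom, and 3 had an unadjusted p below 0.05. Over all tested features and times 5.77% had an unadjusted p below 0.05, and in 9.68% the scaled values of the strains did not overlap. Of all tested features 0.323% were called at 1 or more of the 6 times. *gpd2* was higher in the libraries labelled *atf21Δ* than in WT at 15 min, with scaled means of 64.9 ± 7.91 against 49.3 ± 4.73 and a log2 difference of 0.39 (95% interval 0.13 to 0.66). At 60 min *gpd2* had scaled means of 48.1 ± 4.28 in the libraries labelled *atf21Δ* against 37.5 ± 4.21 in WT, a log2 difference of 0.36 (0.09 to 0.62). The strains did not overlap at either time, but the adjusted p was 0.449 and 0.568 (limma, Benjamini-Hochberg). *dak2* at 30 min had scaled means of 2.23 ± 0.25 in the libraries labelled *atf21Δ* against 3.78 ± 1.28 in WT, a log2 difference of -0.61 (-1.21 to -0.02, limma, Benjamini-Hochberg adjusted p = 0.845). These 3 and SPAC977.17 at 120 min, with a log2 difference of -0.32 (-0.86 to 0.21), were the 4 comparisons in which the scaled values of the strains did not overlap. Neither 3 nor 4 of 42 stands apart from those shares, so these counts are not a result about the 7 genes.

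The order of the 7 RNAs by RPKM, which is per length, changed with time at the second place and below. At 0 min the order was *gpd1*, *gpd2*, *dak1*, SPAC977.17, *dak2*, *gut2* and *gld1* in both strains. In WT no neighbours in that order overlapped. In the libraries labelled *atf21Δ* the last 4 genes overlapped from each to the next. At 30 min *gut2* held the second place in both strains, with libraries that overlapped those of *dak1*, and *gpd2* came next after *dak1*. At 120 min *dak2* was last in both strains, overlapping *gld1*. Of the summed RPKM of the 7, *gpd1* made up 91.4% ± 0.61 at 30 min in the libraries labelled *atf21Δ*, against 65.5% ± 0.81 at 0 min. In WT it made up 90.1% ± 1.56 at 30 min, against 69.1% ± 0.52 at 0 min (SD, n = 3 each).

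Features on the opposite strand were read from the same libraries, since the reads were counted by strand. *gut2* lies wholly within SPNCRNA.1235, an ncRNA annotated on the plus strand of chromosome III from 1839787 to 1844115. SPNCRNA.1235 had 0.447, 0.162 and 0.555 RPKM (9 to 38 reads) at 30 min in the libraries labelled *atf21Δ*, against 1.74, 2.43 and 2.24 RPKM at 0 min. WT cells had 0.317, 0.245 and 0.448 RPKM (12 to 27 reads) at 30 min, against 2.11, 1.80 and 2.18 RPKM at 0 min. The ncRNA was thus lowest where *gut2* was highest, without overlap with 0 min. The log2 change at 30 min was -1.37 ± 0.22 (SE) in the libraries labelled *atf21Δ* and -1.39 ± 0.27 in WT (limma, Benjamini-Hochberg adjusted p = 0.000184 and 0.00168).

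At 60 min SPNCRNA.1235 was back at 1.56 ± 0.35 RPKM in the libraries labelled *atf21Δ* and 1.47 ± 0.29 RPKM in WT (SD, n = 3 each). These deposited values overlapped those of 0 min, and the scaled values were below 0 min without overlap, with log2 changes of -0.31 and -0.35 that did not pass (limma, Benjamini-Hochberg adjusted p = 0.361 and 0.474). At 120 and 180 min SPNCRNA.1235 was lower again, without overlap with 0 min. It had means of 0.96 and 1.02 RPKM in the libraries labelled *atf21Δ* and 0.94 and 0.92 RPKM in WT. The log2 changes at 120 min in the libraries labelled *atf21Δ* (-0.79) and at 15 min in WT (-0.94) passed (limma, Benjamini-Hochberg adjusted p = 0.0154 and 0.0244). The other changes at 15, 120 and 180 min did not pass. Over the 18 libraries of a strain, Pearson's r between *gut2* and SPNCRNA.1235 on the log2 scale of the deposited RPKM was -0.82 in the libraries labelled *atf21Δ* and -0.75 in WT (Spearman's rho -0.64 and -0.51). The libraries share their times and depth, so this describes them and was not tested. At 30 min in the libraries labelled *atf21Δ* the mean level per length was 73.8 RPKM for *gut2* and 0.388 RPKM for SPNCRNA.1235. From 60 to 120 and 180 min *gut2* had means of 12.6, 13.8 and 10.4 RPKM in the libraries labelled *atf21Δ*. In WT these means were 13.5, 11.7 and 10.9 RPKM.

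**Figure D4:**
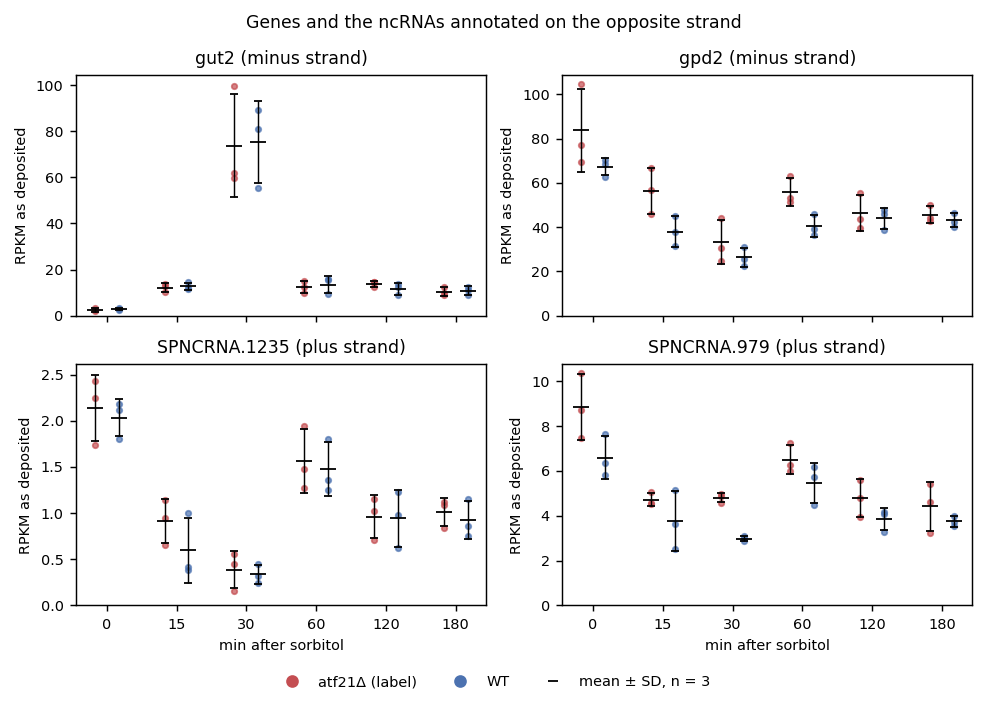
RPKM as deposited (vertical axis, from 0) of *gut2* and *gpd2* and of the ncRNAs annotated opposite to them at 0 to 180 min after sorbitol (horizontal axis), with 1 point per library, red for the libraries labelled *atf21Δ* and blue for WT, and bars for mean ± SD of 3. SPNCRNA.1235 is lowest at 30 min, where *gut2* is highest, and SPNCRNA.979 falls with *gpd2*.

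SPNCRNA.979 overlaps *gpd2* by 218 bases on the opposite strand, 12% of the gene. It had 4.81 ± 0.20 RPKM at 30 min in the libraries labelled *atf21Δ*, against 8.85 ± 1.46 RPKM at 0 min. In WT it had 2.99 ± 0.11 RPKM at 30 min, against 6.60 ± 0.94 RPKM at 0 min (SD, n = 3 each). It was thus lower together with *gpd2*, by log2 changes of -0.52 in the libraries labelled *atf21Δ* and -0.67 in WT (limma, Benjamini-Hochberg adjusted p = 0.0215 and 0.0372). Its r with *gpd2* over 18 libraries on the deposited RPKM was 0.72 in the libraries labelled *atf21Δ* and 0.66 in WT, again as a description. The overlapping pair of *dak2* and SPAC977.17 had an r of 0.48 and 0.29 on the deposited RPKM, and of 0.40 and 0.27 on the scaled values.

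A pair of features share a strand and bases with a gene of the 7. SPAC22A12.10 overlaps *dak1* by 99 bases and SPAC13F5.04c overlaps *gld1* by 63 bases, so reads on these bases cannot be assigned to 1 of them. SPAC22A12.10 had a log2 change of 0.33 at 15 min in the libraries labelled *atf21Δ*, which passed (limma, Benjamini-Hochberg adjusted p = 0.013), and 0.09 at 30 min, which did not. Of the ncRNAs annotated just upstream of *gpd1* on its strand, SPNCRNA.436 had 0 reads in all 36 libraries and SPNCRNA.1657 had 0 to 23 reads per library.

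Among the 7, *gpd1* and *gut2* followed each other most closely, with r = 0.94 over the 36 libraries. This r and those that follow are on the log2 scale of the scaled RPKM. *gpd1* and *gpd2* had r = -0.59, and *gut2* and *gpd2* had r = -0.73. *dak1* had r = 0.79 with *gpd1*, and *dak2* had r = 0.32 with *dak1*. The libraries share their 6 times, so these values describe a common course and carry no test.

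The protein-coding genes outside the 7 with the most similar course were found among 4866 compared, by Pearson's r over the 36 libraries. For *gpd1* they were SPAC22F8.05 (r = 0.99), SPBC11C11.06c (0.99) and the catalase gene *ctt1* (0.98). For *gut2* they were *rds1*, *mug190* and SPAC139.05 (0.97 each). *dak1* was closest to *zwf1* (0.89), the glucose-6-phosphate dehydrogenase gene, and then to *cpy1* and *gas2*. *gpd2* was closest to the mitochondrial carrier gene *oac1* (0.83), then to *arg5* and *rrg1*. The closest genes of *dak2* were SPBPB2B2.01 (0.86), the inositol transporter gene *itr2* (0.83) and SPAC977.15 (0.82). *gld1* was closest to *ucp7* (0.81), and SPAC977.17 had the weakest likeness of the 7 to any gene (0.74 with SPBC16E9.02c).

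Glycolysis supplies the precursor of glycerol. Of 13 glycolysis genes, 3 were called higher and none lower at 30 min in the libraries labelled *atf21Δ*, and 1 was higher and none lower in WT. Their median log2 change was 0.40 in the libraries labelled *atf21Δ* and 0.13 in WT, against -0.02 and -0.01 over all tested features, of which 19.7% were higher and 19.1% lower in the libraries labelled *atf21Δ*, and 15.5% and 13.2% in WT. For 13 genes, 3 and 1 are close to or below these shares of 30 min. The gene called in both strains was *eno102*, an enolase gene, with log2 changes of 2.83 and 3.39. In the libraries labelled *atf21Δ*, *gpd3* (0.60), a glyceraldehyde-3-phosphate dehydrogenase gene and no isozyme of *gpd1*, and *pgi1* (0.51) were also higher at 30 min. *gpd3* was called higher at 60, 120 and 180 min in both strains, with 1.14, 0.88 and 0.78 in WT. *hxk1*, *pgi1*, *pfk1*, *fba1*, *tpi1*, *tdh1*, *gpd3* and *eno102* were called higher at 15 min in the libraries labelled *atf21Δ* (0.25 to 0.82). In WT these genes had 0.27 to 0.35 at 15 min, and none was called. At that time 27.5% and 22.3% of all features were called in either direction.

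Genes of trehalose, the other compatible solute of yeasts, were called higher at 30 min in 3 of 3 cases in both strains, with a median log2 change of 3.08 in the libraries labelled *atf21Δ* and 2.96 in WT. All features had 19.7% and 15.5% higher. *tps1*, the trehalose-6-phosphate synthase gene, had 3.29 and 2.96. The trehalase gene *ntp1* had 3.08 and 2.99, so a gene of synthesis and a gene of breakdown were both higher.

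Of 12 genes of the stress MAP kinase pathway, 6 were higher and 3 lower at 30 min in the libraries labelled *atf21Δ*, and 5 were higher and 1 lower in WT. Their medians were 0.16 and 0.21, and of all features 19.7% were higher and 19.1% lower in the libraries labelled *atf21Δ*, and 15.5% and 13.2% in WT. Besides *atf21*, which is on this list, the largest changes were those of *pcr1* (3.099 and 2.93), *mpr1* (1.65 and 1.66) and *atf1* (1.64 and 1.69). Of 7 glycerolipid genes, 3 were higher and 1 lower in the libraries labelled *atf21Δ* and 1 was higher and 1 lower in WT, with medians of 0.07 and 0.10. The WT counts of this list are near the shares of all features. SPAC4D7.02c had the largest change on this list (2.44 and 2.19), and *plh1*, an acyltransferase gene of triacylglycerol synthesis, was lower (-0.52 and -0.43).

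A wider list held the 16 genes whose RefSeq product name holds the word glycerol, most of them enzymes of lipids. Of these, *slc1*, *plh1*, *dga1* and SPBC1718.04 are also on the glycerolipid list. In the libraries labelled *atf21Δ* 4 were higher and 3 lower at 30 min, with a median of 0.06, and in WT 2 were higher and 3 lower, with a median of 0.01. These counts are near the shares of all features (19.7% higher and 19.1% lower, and 15.5% and 13.2% in WT). The triacylglycerol lipase gene SPAC1786.01c had the largest change (1.13 in both strains). *his5*, a gene of histidine synthesis whose product name holds the word by its substrate, was lower (-0.79 and -0.80).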

How the data were processed

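Total RNA of 36 samples was depleted of rRNA and sequenced by the authors as strand-specific single-end reads on a SOLiD instrument. They aligned the reads of 48 bases with SHRiMP2 to the genome of PomBase release 11 and kept reads at a single locus. RPKM, the unit of the deposited table, was calculated by the authors for each library from reads on a feature's strand, its length and all uniquely mapped reads, with no scaling between libraries. All of the 253404 values were whole reads within 0.01 read, so reads were recovered. By these reads, rRNA features still held 34.16% to 57.54% of the reads on all features of a library. The mapped reads behind RPKM include them.

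Groups came from the sample labels. Scaling factors (0.685 to 1.35) were trimmed means of log ratios without weights, with 30% of ratios and 5% of levels trimmed at each end, and log2 was taken after 0.5 was added. A feature was tested if its RPKM reached 1 in more than 6 libraries, which left 5882. Each strain was fitted with limma 3.58.1 in R 4.3.3, with the times as groups and the variance trend of limma. Benjamini-Hochberg adjustment ran over all features, and for single times over features and times together, with a threshold of 0.05. The strains were compared in 1 fit of all libraries. Within-library ratios were compared by exact permutation of times within strains. Replicates differed by more than counting noise in all groups (chi-square per degree of freedom at least 19.75), and p-values measure the spread between biological replicates as labelled. The fits were tested on simulated data of independent libraries, with changes at 30 min alone. That simulation held no effect shared by libraries of the same replicate number, so it cannot show how the fits behave under one.

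All 7 genes were named, with features within 500 bases, the 3 genes of highest r for each, and from each list at most the 4 with the largest change. The genes and lists were chosen with earlier results of these data known. *tgp1*, on the glycerolipid list, was not matched in the table. Gene coordinates are those of the deposited table, and promoter and coding sequences with their coordinates are RefSeq's of ASM294v3. Protein sequences were not used here. Python 3.11.15 (numpy 2.4.6, pandas 2.3.3, matplotlib 3.10.9, Biopython 1.88) was used for ratios, sequences and figures. The alternatives were other pseudocounts, scalings, filters and models, a replicate block, and leaving out each library.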

Additional observations from a re-analysis of the deposited data

How the results depend on the processing

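The counts of genes changed over time ran from 5 to 7 in each strain over all alternatives, and 5 is also the number tested with a minimum RPKM of 5. Calls at single times ran from 19 to 23 in the libraries labelled *atf21Δ* (22 as reported) and from 16 to 23 in WT (18 as reported), and leaving out a library gave 20 to 22 and 17 to 21. No alternative called an interaction or a strain difference. Of the 40 changes called at single times, 36 passed in the same direction on the RPKM as deposited, 38 with quantile normalization and 40 with voom on recovered reads. Of these 40, *dak1* at 15 min in the libraries labelled *atf21Δ* changed sign on the RPKM as deposited. Its log2 change there was -0.11 and did not pass (limma, Benjamini-Hochberg adjusted p = 0.72). In WT, where *dak1* at 15 min was not among the 40, it was -0.44 on the RPKM as deposited. By construction that setting keeps the shift of the median.

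The replicate numbers are shared by all groups, and the labels do not say what a shared number stands for. The main tests did not use them as pairing and treat the libraries as independent. Same-numbered libraries of a strain deviated together in 33 of 45 comparisons in the libraries labelled *atf21Δ* and in 27 of 45 in WT (r over 0.1), with medians of 0.207 and 0.145. Libraries with different numbers did so in 4 of 90 and 12 of 90, with medians of -0.0802 and -0.0702. With the number as a replicate block, 6 and 7 genes changed over time, 23 and 21 changes passed at single times, no interaction and no strain difference passed, and 16 ratio comparisons passed, against 19 of 25 as reported. Under the block *gld1* was the gene added in WT (F-test of limma, Benjamini-Hochberg adjusted p = 0.0401), and SPAC977.17 passed at 60 min in both strains (limma, Benjamini-Hochberg adjusted p = 0.0284 in the libraries labelled *atf21Δ* and 0.0185 in WT) and at 120 and 180 min in WT (0.0268 and 0.0154). For the ratios this setting was another exact test, which flipped the signs of differences between same-numbered libraries of a strain. It has fewer arrangements than the 400 of the main test, so its smallest p is larger. The ratio comparisons lost were *gut2* to *gpd1* at 15 min, *gld1* to *dak1* at 180 min and SPAC977.17 to *dak2* at 180 min (adjusted p of the exact sign-flip test = 0.0868, 0.0868 and 0.123).

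*gld1* (4 to 89 reads) and *dak2* (15 to 288 reads) rested on few reads, and the part of depth in their results was not tested. The 25 ratio comparisons were also repeated without each library in turn, an alternative chosen after seeing the data, and 16 to 20 passed (19 as reported). Leaving out a replicate number in all groups leaves 36 arrangements, and those settings gave values only.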
